A study of Mus musculus with 12 samples.

Results

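Open chromatin was examined at 9 genes that define excitatory neurons of the cortex: Slc17a7, Tbr1, Neurod2, Neurod6, Cux2, Rorb, Bcl11b, Fezf2 and Emx1. A peak belonged to the group when the deposited annotation named 1 of these genes as its nearest gene. This gave 218 of 281974 peaks over 3 tables. The NeuN+ table held 134 of 107627 peaks, spread over all 9 genes. The Olig2+ table held 43 of 82577 peaks at 8 genes, none of them at Neurod6. The microglia table held 41 of 91770 peaks at 6 genes, none of them at Neurod6, Rorb or Fezf2.

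ATAC-seq, which reads where a transposase can cut accessible DNA, had been run on forebrains of C57BL/6 mice aged 4 months that were WT or carried the label SgshKO. Sgsh encodes a lysosomal sulfatase that degrades heparan sulfate; the kind of allele was not given in the sources used here. Each of the 6 groups had 2 libraries: microglia (live CD11b+ and CX3CR1+ cells with low CD45), NeuN+ nuclei (NEUN+, negative for PU.1 and OLIG2) and Olig2+ nuclei (OLIG2+, negative for PU.1 and NEUN), each in WT and SgshKO mice. Nuclei had been lightly fixed in formaldehyde before the sort, and microglia had been sorted alive. The NeuN+ gate is not limited to cortical or excitatory neurons, so excitatory cortical neurons are only some of its nuclei. The labels do not say that replicates came from separate animals, so p-values measure the spread between these libraries, which may be technical.

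Excitatory cortical neurons signal with glutamate, which they load into synaptic vesicles through the transporter encoded by Slc17a7 (VGLUT1). Their class and layer are set during development by transcription factors, several of which stay expressed in the adult. A start-site peak marks an accessible promoter, and distal peaks can mark enhancers, although the nearest gene need not be the one that an enhancer acts on.

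The NeuN+ libraries held 14326703 to 17706971 tags, the Olig2+ libraries 15044194 to 19555924 and the microglia libraries 10771659 to 11804222. Values below are normalized tags, meaning tags in a peak per 10000000 tags of its library. Of the tags of the NeuN+ libraries, 26.7% and 25.9% lay in peaks in WT but 21.5% and 21.2% in SgshKO. All 5 neuron markers had a start-site peak in NeuN+ nuclei, where none of 8 microglial markers did. All 9 oligodendrocyte markers had 1 in Olig2+ nuclei, and 7 of 8 microglial markers had 1 in microglia. Such peaks did not fully separate the sorts. Of the neuron markers, 4 of 5 had 1 in Olig2+ nuclei and 1 of 5 in microglia. Of the oligodendrocyte markers, 4 of 9 had 1 in NeuN+ nuclei and 5 of 9 in microglia. Of the microglial markers, 1 of 8 had 1 in Olig2+ nuclei. At the Sgsh start site, WT NeuN+ libraries read 34.5 and 22.6 and SgshKO libraries 9.07 and 13.3, a log2 change of -1.27 (adjusted p = 0.00256). That start site had values of -0.11 in Olig2+ nuclei and 0.58 in microglia, neither of which passed the test. Whether it lies in the altered part of the gene is not given, so it checks no label.

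The 6 proximal promoters below are shown because NeuN+ or Olig2+ peaks lay on them: those of Slc17a7, Neurod2, Rorb and the long Cux2 transcript carried start-site peaks that fell, and the internal Cux2 start and Fezf2 are shown for comparison. Each is the 250 bases before a RefSeq start site (GRCm38.p6), read 5′ to 3′ on the gene's strand. Capitals mark GC boxes (GGGCGG), E-boxes (CAGATG), the AP-1-like pattern TGANTCA (N being any base) and the TATA box (TATAAA), each searched on both strands. Cux2 is given at 2 start sites, first that of the long transcript and then an internal one.
Slc17a7, chr7:45163671-45163920, plus strand: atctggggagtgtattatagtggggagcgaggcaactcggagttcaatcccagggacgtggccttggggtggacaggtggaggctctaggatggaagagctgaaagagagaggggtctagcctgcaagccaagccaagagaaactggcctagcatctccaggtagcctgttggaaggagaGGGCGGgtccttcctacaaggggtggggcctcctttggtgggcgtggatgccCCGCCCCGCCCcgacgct
Neurod2, chr11:98329646-98329895, minus strand: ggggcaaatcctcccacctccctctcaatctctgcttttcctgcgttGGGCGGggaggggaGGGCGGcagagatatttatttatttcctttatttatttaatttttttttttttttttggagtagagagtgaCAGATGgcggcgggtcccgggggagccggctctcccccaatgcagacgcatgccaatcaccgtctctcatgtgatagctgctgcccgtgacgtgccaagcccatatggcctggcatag
Rorb, chr19:19111197-19111446, minus strand: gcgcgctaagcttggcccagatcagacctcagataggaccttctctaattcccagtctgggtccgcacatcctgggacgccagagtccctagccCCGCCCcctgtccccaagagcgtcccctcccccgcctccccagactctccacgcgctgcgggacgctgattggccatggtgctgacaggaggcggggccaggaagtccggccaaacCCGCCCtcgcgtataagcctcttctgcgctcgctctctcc
Cux2, chr5:122049852-122050101, minus strand: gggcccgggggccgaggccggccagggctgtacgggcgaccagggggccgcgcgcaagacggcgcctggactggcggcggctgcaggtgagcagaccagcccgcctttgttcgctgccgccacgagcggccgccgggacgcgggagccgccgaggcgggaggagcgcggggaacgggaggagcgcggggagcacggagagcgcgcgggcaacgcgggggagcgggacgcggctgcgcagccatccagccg
Cux2, chr5:122047826-122048075, minus strand: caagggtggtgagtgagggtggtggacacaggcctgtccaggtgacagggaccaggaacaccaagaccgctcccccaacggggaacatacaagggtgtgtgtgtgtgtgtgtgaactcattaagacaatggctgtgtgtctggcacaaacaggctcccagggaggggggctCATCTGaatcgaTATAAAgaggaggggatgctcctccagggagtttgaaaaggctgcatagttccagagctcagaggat
Fezf2, chr14:12345866-12346115, minus strand: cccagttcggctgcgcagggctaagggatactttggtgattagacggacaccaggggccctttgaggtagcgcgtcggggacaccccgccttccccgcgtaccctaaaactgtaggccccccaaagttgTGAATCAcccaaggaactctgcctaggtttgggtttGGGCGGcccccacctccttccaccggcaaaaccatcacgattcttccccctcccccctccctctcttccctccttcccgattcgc
The GC box was in 6 of the 11 promoters of these genes (6 of the 9 genes), against 32.7% of 32851 RefSeq promoters. CAGATG was found at Neurod2 and at the internal Cux2 start, against 14.4% of promoters, and the TATA box at the internal Cux2 start, against 12.4%. The AP-1 letters stood in the printed Fezf2 promoter and at a second Rorb start that is not shown, against 6.75% of promoters. The E-box CAGCTG (13.0% of promoters), the ROR receptor element AGGTCA (14.02%) and the T-box core GGTGTGA (3.33%) matched none of the 11 promoters of these genes. The printed bases were covered by NeuN+ peaks for 139 of 250 at Slc17a7, 188 at Neurod2, 174 at Rorb, 193 at the long Cux2 start and 172 at Fezf2. The internal Cux2 promoter had 211 bases under an Olig2+ peak and 0 under a NeuN+ peak. A match is a description of these letters and not evidence that a factor bound there.

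In NeuN+ nuclei, most of the 9 genes had less accessible start sites in SgshKO than in WT mice. Of 15 start-site peaks (within 1000 bp of a start site), 8 fell and 0 rose. They belonged to Slc17a7, Tbr1, Neurod2, Cux2, Rorb and Emx1, while Neurod6, Bcl11b and Fezf2 had no start-site peak that passed the test. Falls at start sites were general in this sort: 44.9% of all 23397 start-site peaks fell and 1.74% rose. The median log2 change was -0.85 for the 15 and -0.53 for all start-site peaks. A peak was called at a limma adjusted p under 0.05 over the whole table, and changes are on the log2(normalized tags + 1) scale.

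The lower share of NeuN+ tags in peaks moved with this result. Scaling to the tags in peaks shifted the median change of all NeuN+ peaks from -0.23 to 0.05. Under that scaling 6 of the 15 start-site peaks still fell and 0 rose, where 23.5% of all start-site peaks fell and 4.87% rose. Without WT replicate 1, 3 of the 15 were called, without either SgshKO library 0, and with DESeq2 1, at Slc17a7. In bulk sorts such as these, fewer nuclei of a type and less signal per nucleus cannot be told apart. The summed start-site signal of other marker lists was also lower in both SgshKO NeuN+ libraries: the neuron list gave 872.3 and 817.8 (WT) against 467.7 and 480.6 (SgshKO), the inhibitory list 90.6 and 83.6 against 55.1 and 59.7, the oligodendrocyte list (4 of 9 genes with a peak) 179.0 and 154.8 against 85.8 and 88.2, and the astrocyte list (2 of 7) 199.4 and 183.6 against 130.5 and 132.7. Mag, Mog, Mobp, Olig2 and Sox10 had no start-site peak in this table. The part of cell makeup in the result was not tested.

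Slc17a7 had the largest start-site change. Its peak at chr7:45163782-45164017 (mm10), centred 22 bp upstream of the start site, read 86.7 and 70.6 in WT and 27.9 and 24.8 in SgshKO. Every WT library was above every SgshKO library, a log2 change of -1.54 ± 0.18 (limma SE; adjusted p = 9.55e-06). It passed the test under every scaling, with edgeR and with DESeq2 (adjusted p = 0.00048). The neighbouring peak 1587 bp upstream, the highest member peak of this sort by mean signal, read 95.7 and 98.8 against 67.7 and 68.6, a smaller fall of 0.51 on the log2 scale. Peaks in the first intron at +1421 and +3293 bp also fell, by 0.80 and 0.66. These 3 falls did not pass when libraries were scaled to tags in peaks (adjusted p = 0.237 for the peak at -1587, 0.162 at +1421 and 0.118 at +3293), whereas the start site did (-1.25, adjusted p = 1.75e-05).

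**Figure D1:**
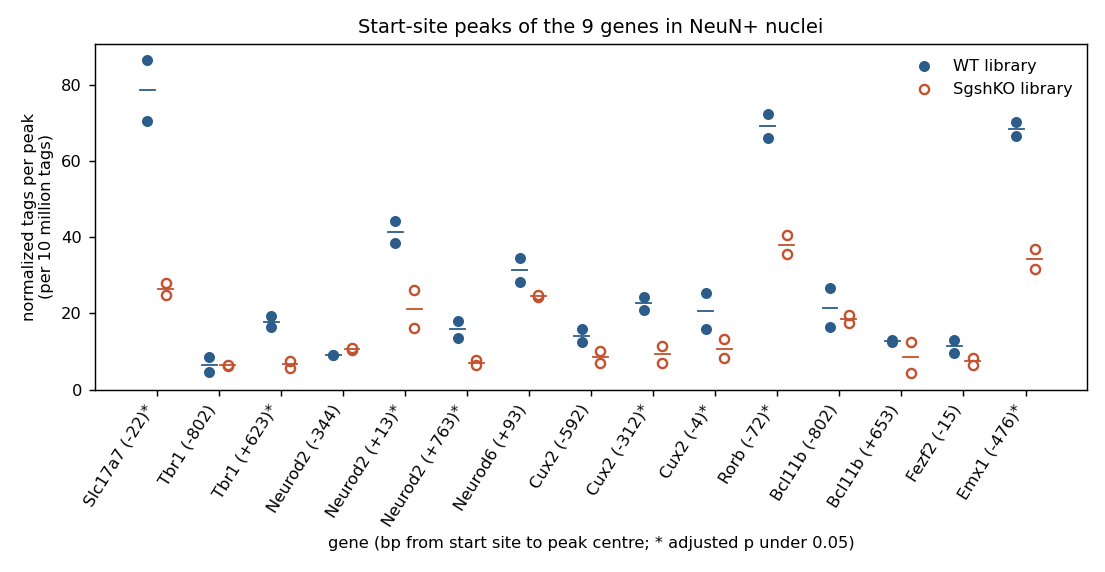
Normalized tags per peak (y axis, linear from 0) in each NeuN+ library for the 15 start-site peaks, named by gene and distance of the peak centre from the start site in bp; filled points are WT libraries, open points SgshKO libraries, and bars group means of 2. The 8 starred peaks were called, all lower in SgshKO, with Slc17a7, Rorb and Emx1 the highest in WT.

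Emx1 encodes a homeobox factor of the dorsal telencephalon, the origin of cortical excitatory neurons. The Emx1 peak 476 bp upstream read 70.2 and 66.6 in WT and 37.0 and 31.8 in SgshKO, with no overlap (log2 change -0.98 ± 0.17, adjusted p = 0.000391). In its exon 2, the peak at +6192 bp fell from 17.6 and 20.3 to 3.49 and 8.25 (-1.63 ± 0.34, adjusted p = 0.00211). Of its 17 peaks, 11 lay in introns of the neighbouring gene Sfxn5, and 0 of these were called. The strongest distal Emx1 peak, 50069 bp downstream inside Sfxn5, read 20.96 and 20.9 in WT and 27.2 and 29.8 in SgshKO, higher in both SgshKO libraries but short of the threshold (0.43 ± 0.22, adjusted p = 0.138). With in-peak scaling that peak did rise (0.72, adjusted p = 0.0182), while the Emx1 start site still fell (-0.68, adjusted p = 0.00354).

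The bHLH factors Neurod2 and Neurod6 promote differentiation of excitatory neurons. At the Neurod2 start site (+13 bp) WT libraries read 44.2 and 38.4 and SgshKO libraries 16.1 and 26.03, a log2 change of -0.97 ± 0.23 (adjusted p = 0.00458). An intronic peak at +763 bp fell by 1.06 on the log2 scale. A weaker peak at -344 bp did not pass (9.06 and 9.04 against 10.5 and 10.8). The distal peak at +15676 bp, the strongest of 14 distal peaks, read 42.5 and 44.6 against 27.2 and 20.3, and fell by 0.86. Over all 17 Neurod2 peaks the median change was -0.71, with 5 lower and 0 higher. In-peak scaling left 2 lower with a median of -0.43, and quantile normalization 1, with the start site (adjusted p = 0.0677) and the peak at +15676 bp (adjusted p = 0.0600) no longer past the test.

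Neurod6 had calls in opposite directions along its locus. Its start-site peak (+93 bp) read 34.5 and 28.2 in WT and 24.4 and 24.8 in SgshKO and did not pass (-0.33 ± 0.21, adjusted p = 0.231). At the gene's 3′ end, the peak at chr6:55676864-55677326 (+4168 bp) fell from 43.0 and 46.3 to 11.2 and 16.5. That log2 change of -1.64 ± 0.23 (adjusted p = 6.66e-05) was the second smallest p of the 134 peaks. Farther downstream, intergenic peaks at +88988 and +113505 bp rose instead. The first, chr6:55592108-55592442, read 22.7 and 20.3 in WT and 38.4 and 44.4 in SgshKO (0.91 ± 0.20, adjusted p = 0.00303). The second read 5.66 and 7.34 against 15.4 and 14.6 (1.10 ± 0.30, adjusted p = 0.0120). The fall at +4168 bp and the rise at +88988 bp passed under all scalings, edgeR and DESeq2, and the rise at +113505 bp passed all of these except DESeq2 (adjusted p = 0.165).

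Tbr1, a T-box factor of layer-six and other early-born neurons, had 7 peaks, of which 4 fell and 0 rose. In its exon 1 (+623 bp) WT libraries read 19.3 and 16.4 and SgshKO libraries 5.58 and 7.62, a log2 change of -1.32 ± 0.30 (adjusted p = 0.00356). The intronic peak at +2708 bp fell from 9.63 and 6.21 to 2.09 and 1.27 (-1.72 ± 0.41, adjusted p = 0.00467). The strongest distal Tbr1 peak, at +11284 bp, read 18.7 and 19.2 in WT and 5.58 and 13.97 in SgshKO and also fell (-1.01, adjusted p = 0.0306). In this last peak the SgshKO libraries lay far apart, but neither reached the WT values. With in-peak scaling it no longer passed (adjusted p = 0.0993).

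Fezf2 and Bcl11b (CTIP2) are zinc-finger factors that specify subcerebral projection neurons, and Bcl11b also marks striatal neurons. Each had 28 peaks in NeuN+ nuclei. At Fezf2 8 fell and 2 rose, and at Bcl11b 1 fell and 0 rose, beside 19.6% and 10.2% of all peaks. The counts became 3 and 2 at Fezf2 and 0 and 1 at Bcl11b with in-peak scaling, and 3 and 1 and 0 and 0 with quantile normalization. The difference between the genes was not tested. The Fezf2 start site itself (-15 bp) was weak, at 13.0 and 9.60 in WT and 8.38 and 6.35 in SgshKO, and did not pass (-0.55, adjusted p = 0.193). Just downstream, peaks at +1020, +4256 and +5464 bp fell by 1.35, 1.67 and 1.95 on the log2 scale. The peak at +4256 bp, at the gene's 3′ end, went from 12.5 and 10.2 to 2.09 and 3.81 (adjusted p = 0.00294).

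Of the Fezf2 peaks, 23 lay in introns of the adjacent gene Cadps, which encodes a regulator of dense-core vesicle release. Here 5 fell and 2 rose. The strongest, at -91097 bp, read 55.5 and 59.3 in WT and 32.8 and 36.2 in SgshKO (-0.72 ± 0.17, adjusted p = 0.00471; with in-peak scaling 0.0686). The rises were at -228718 bp, from 11.3 and 8.47 to 24.4 and 22.2 (1.17 ± 0.27, adjusted p = 0.00356), and at -232451 bp, from 2.83 and 8.47 to 11.2 and 13.97 (1.16, adjusted p = 0.0313; with quantile normalization 0.0850). Both are in Cadps intron 6, so their assignment to Fezf2 rests only on which start site is nearest.

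Most Bcl11b peaks did not pass the test in NeuN+ nuclei. The start-site peaks at -802 bp (26.6 and 16.4 against 17.4 and 19.7) and +653 bp (12.5 and 13.0 against 12.6 and 4.44) overlapped between genotypes. The strongest distal peak, at -69708 bp, read 31.2 and 41.8 in WT and 32.8 and 33.0 in SgshKO, and its change of -0.13 took the opposite sign when rescaled (0.16 with in-peak scaling). The intronic peak at +4478 bp was the exception, falling from 27.2 and 20.3 to 12.6 and 11.4 (-0.92 ± 0.26, adjusted p = 0.0129). It too was lost with in-peak scaling (adjusted p = 0.0715).

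Cux2, a homeobox factor of upper-layer neurons, had 21 NeuN+ peaks, 4 lower and 0 higher. Its start-site peak at -312 bp read 24.4 and 20.9 in WT and 6.98 and 11.4 in SgshKO (-1.24 ± 0.29, adjusted p = 0.00381), and the peak at -4 bp 25.5 and 15.8 against 13.3 and 8.25 (-0.88, adjusted p = 0.0352). The call at -4 bp was lost with in-peak scaling (adjusted p = 0.135), median-of-ratios scaling (0.0976), quantile normalization (0.110) and edgeR (0.0729). In intron 2, the peak at +46099 bp fell from 16.4 and 13.0 to 2.09 and 6.35 (-1.71 ± 0.39, adjusted p = 0.00349). The strongest distal peak, in the same intron at +84679 bp, read 32.9 and 28.8 against 22.3 and 24.1 and did not pass (-0.39, adjusted p = 0.162).

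Rorb, a nuclear receptor typical of layer-four neurons, had only 2 peaks. Its start site at -72 bp read 72.5 and 66.1 in WT and 40.5 and 35.5 in SgshKO, with no overlap (-0.85 ± 0.16, adjusted p = 0.00102). Quantile normalization ended this call (-0.49, adjusted p = 0.0569). The intronic peak 4237 bp upstream of another Rorb start read 17.0 and 18.6 against 20.2 and 19.1 and did not pass (0.13 ± 0.24, adjusted p = 0.688).

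Over all 134 NeuN+ peaks, 31 fell and 4 rose, where 19.6% of all peaks fell and 10.2% rose. Of the 119 distal peaks, 23 fell and 4 rose, while 12.6% of all distal peaks fell and 12.6% rose. On the same normalized tags and without a test, both SgshKO libraries were below both WT libraries at 78 of the 134 peaks and above them at 10, against 44.4% and 24.1% of all peaks. These counts restate the same values and were not repeated under other scalings. The distal median was -0.35, beside -0.11 for all distal peaks. With in-peak scaling, 14 of the 134 fell and 6 rose, beside 18 and 6 with median-of-ratios scaling and 13 and 3 with quantile normalization. Over all NeuN+ peaks these scalings turned the balance: 8.86% fell and 17.6% rose with in-peak scaling, 11.01% and 15.1% with median-of-ratios scaling, and 5.90% and 9.62% with quantile normalization. No peak of the whole NeuN+ table passed once either SgshKO library was left out, although 35 and 42 member peaks, and 33265 and 32556 of all peaks, then had an unadjusted p under 0.05. Member calls numbered 9 and 16 without WT replicates 1 and 2, and 3 with DESeq2.

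Calls also varied with distance from the start site. Between 1 and 10 kb, 13 of 31 member peaks fell and 0 rose, beside 16.9% and 6.22% of all peaks in that range, with medians of -0.66 and -0.30. From 10 to 50 kb, 5 of 37 fell, beside 12.9%. Beyond 50 kb, 5 of 51 fell and 4 rose, where 7.82% of all such peaks fell and 21.2% rose. There the member median was -0.36 and that of all peaks 0.16. With in-peak scaling the member and all-peak medians became -0.09 and 0.44 beyond 50 kb, and -0.37 and -0.02 between 1 and 10 kb. The 51 farthest peaks belonged to 5 genes and include runs within single neighbouring genes, so they are not independent loci.

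**Figure D2:**
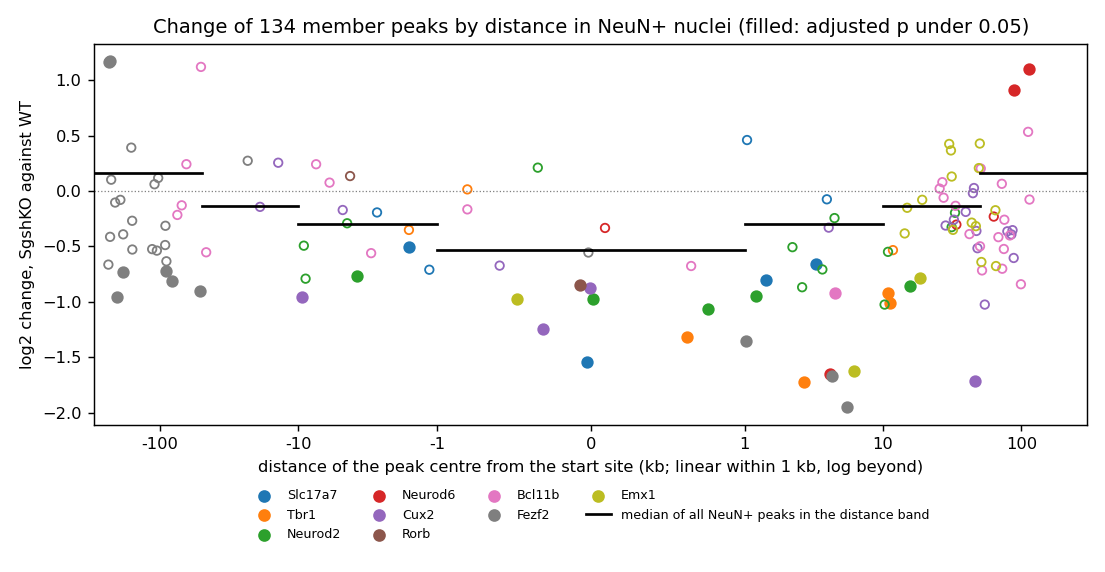
Log2 change, SgshKO against WT (y axis), of the 134 member peaks in NeuN+ nuclei against the distance of the peak centre from the start site in kb (x axis, linear within 1 kb and log beyond); colours are genes, filled points were called, and black lines are medians of all NeuN+ peaks in each distance band. Called falls gather within 10 kb of start sites, and the 4 called rises all lie beyond 50 kb, at Neurod6 and Fezf2.

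Other genes of excitatory neurons also had start sites that fell. Of 20 related genes (among them Foxp2, Pou3f2 and Mef2c), 18 had start-site peaks, and 27 of their 45 peaks fell and 0 rose, with a median of -0.84, beside the 44.9% lower and the median of -0.53 of all start-site peaks. Tle4, a co-repressor found in layer-six neurons, had the smallest p: its promoter read 393.1 and 401.5 in WT and 240.1 and 233.7 in SgshKO (-0.74 ± 0.07, adjusted p = 2.25e-06). With quantile normalization the Tle4 call was lost (-0.19, adjusted p = 0.0674). Camk2a, the calcium-dependent kinase of excitatory synapses, fell from 107.1 and 106.2 to 45.4 and 42.5 (-1.26 ± 0.14, adjusted p = 7.91e-06). Ldb2, a LIM-domain-binding cofactor, fell from 83.3 and 90.4 to 33.5 and 34.3 (-1.33 ± 0.16, adjusted p = 1.21e-05). Of the 8 start-site peaks of inhibitory-neuron genes, 2 fell (Dlx5 and Dlx1) and 0 rose, beside 44.9% and 1.74% of all start-site peaks. All 8 had a change below 0, and their median of -0.51 was near the -0.53 of all start-site peaks. Their signal was weak (median of 9.86 normalized tags, beside 24.5 for all start-site peaks), so few calls there do not show smaller falls. With in-peak scaling 1 of the 8 fell. With in-peak scaling, 15 of the 45 related start-site peaks fell and 1 rose, where 23.5% of all start-site peaks fell and 4.87% rose. Of 139 distal peaks of the related genes, 22 were called lower and 19 higher, where 12.6% of all distal peaks were called in each direction. That balance turned with the scaling: it was 12 lower and 29 higher with in-peak scaling, 13 and 27 with median-of-ratios scaling and with edgeR, and 11 and 18 with quantile normalization. Of 24 distal peaks of the inhibitory genes, 1 was called lower and 6 higher, and with in-peak scaling 0 and 7.

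Most of the NeuN+ peaks of the 9 genes overlapped no peak of the other sorts. The peak sets were made for each sort apart, so a missing overlap does not show closed chromatin. Of the 134 NeuN+ peaks, 76.1% overlapped no Olig2+ or microglia peak by even 1 base, beside 59.9% of all NeuN+ peaks; at start sites the shares were 60.0% and 20.4%. In other neuronal lists, 71.2% of the related genes' peaks and 65.6% of the inhibitory genes' peaks overlapped neither sort. At start sites the shares were 40.0% for the related genes and 62.5% for the inhibitory genes. Of distal peaks, 78.2% overlapped neither sort, beside 81.3% for the related genes, 66.7% for the inhibitory genes and 70.9% of all distal peaks. Cux2 had 21 peaks in NeuN+ nuclei, 16 in Olig2+ nuclei and 18 in microglia, and 61.9% of its NeuN+ peaks overlapped neither other sort. No start-site peak of Neurod2, Neurod6, Bcl11b, Fezf2 or Emx1 in NeuN+ nuclei was shared with either other sort, although microglia had a separate Emx1 start-site peak at +142 bp. Matching peaks with a reciprocal overlap of at least 50% gave 17 shared with Olig2+ nuclei and 16 with microglia. Libraries of each sort were scaled to their own total in separate tables, and the share of tags in peaks differed between sorts (48.7% to 67.4% in microglia), so differences in level between sorts include that scaling.

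In WT mice, 11 of the 17 peaks differed between NeuN+ and Olig2+ nuclei, 4 higher and 7 lower in NeuN+, where 56.2% of 29547 matched peaks did. Among these 17, Slc17a7 at -1587 bp was the most raised in NeuN+ nuclei, at 95.7 and 98.8 against 11.9 and 13.3 in Olig2+ nuclei (log2 difference 2.85 ± 0.20, adjusted p = 1.54e-14). It was also open in WT microglia, at 53.6 and 54.2 (difference 0.84 ± 0.23). A Cux2 peak 4789 bp upstream was instead lower in NeuN+ nuclei, at 7.93 and 7.91 against 55.0 and 74.7 in Olig2+ nuclei (-2.87 ± 0.25, adjusted p = 5.24e-12). Bcl11b had peaks of each kind: the one at -74959 bp was lower in NeuN+ nuclei (-2.22), and those at +4478 and -2985 bp were higher (1.63 and 1.10). All 5 other matched Cux2 peaks also had a negative difference, 4 of them past the test.

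In microglia the same Cux2 region read 107.2 and 79.6 (-3.39 ± 0.33, adjusted p = 2.16e-08 against NeuN+). Of 16 matched peaks, 9 differed in WT, 3 higher and 6 lower in NeuN+, where 61.9% of 24929 matched peaks did; without microglia WT replicate 1 it was 4. The other 2 smallest p-values were at a Bcl11b intronic peak (+72699 bp), at 10.8 and 15.8 in NeuN+ and 0.86 and 0.85 in microglia (2.92 ± 0.41), and at the Slc17a7 start site, at 86.7 and 70.6 against 25.9 and 32.2 (1.41 ± 0.25). The Bcl11b peak held 1 read in each WT microglia library and can have entered that sort's peaks only through SgshKO libraries. Its difference is conditioned on that selection. The balance of directions depended on the scaling. With median-of-ratios scaling, lower calls were lost at Neurod2 -9144 bp (adjusted p = 0.107) and +33152 bp (0.564), Tbr1 +2708 bp (0.355) and Emx1 +65526 bp (0.366). Slc17a7 -1134 bp (1.33), Neurod2 +1211 bp (1.18) and Cux2 -4 bp (0.92) then became calls higher in NeuN+ nuclei.

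**Figure D3:**
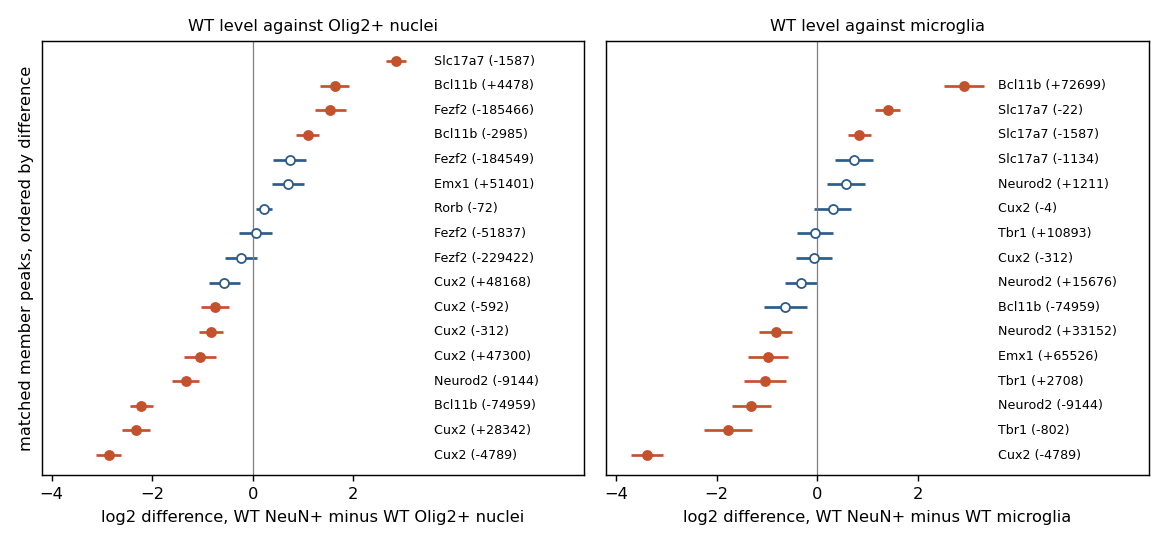
Log2 difference in normalized tags between WT NeuN+ nuclei and WT Olig2+ nuclei (left, 17 peaks) or WT microglia (right, 16 peaks), with bars of 1 limma SE; filled points passed the test, and labels give the gene and distance in bp. Slc17a7 at -1587 bp stands at 2.85 on the left, and Cux2 at -4789 bp is lowest in both panels, at -2.87 and -3.39.

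In Olig2+ nuclei, 3 of the 43 peaks at 8 genes rose and 4 fell. These shares (6.98% and 9.30%) lay near those of all peaks, of which 8.17% rose and 11.7% fell. Only Cux2 (4) and Rorb (1) had start-site peaks, and 0 of these 5 passed the test by limma, edgeR or DESeq2, where limma called 20.3% of all start-site peaks. The rises were all at Bcl11b. Its upstream peak at chr12:108064015-108064331 (-60759 bp) read 105.3 and 120.7 in WT and 178.3 and 184.1 in SgshKO (0.68 ± 0.11, adjusted p = 4.55e-05). Peaks at -75494 bp (42.5 and 37.3 against 62.7 and 62.5) and -2948 bp (15.04 and 18.4 against 30.1 and 26.6) rose by 0.64 and 0.73. Over its 16 peaks the median change was 0.60, with 3 below 0, beside -0.07 for all Olig2+ peaks.

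The falls in Olig2+ nuclei were at Cux2 and Neurod2. In Cux2 intron 2, the peak at +28365 bp read 45.1 and 56.8 in WT and 17.2 and 30.6 in SgshKO (-1.11 ± 0.22, adjusted p = 0.000794), and that at +56622 bp 18.1 and 19.9 against 7.38 and 6.65 (-1.32 ± 0.30, adjusted p = 0.00226). The upstream Cux2 peak at -4808 bp read 55.0 and 74.7 against 45.5 and 38.5 (-0.60, adjusted p = 0.0158), and a Neurod2 peak at -9171 bp 41.5 and 44.5 against 25.8 and 30.6 (-0.60, adjusted p = 0.0323; with quantile normalization 0.0669). With WT replicate 2 left out only the Bcl11b peak at -60759 bp was still called.

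Marker sums moved in the same libraries. The oligodendrocyte list summed to 3544 and 3501 in WT against 2893 and 2890 in SgshKO Olig2+ nuclei, the precursor list to 423.2 and 408.6 against 447.0 and 450.7, the neuron list to 372.9 and 409.1 against 439.6 and 419.4, and the inhibitory list (2 of 11 genes with a peak) to 29.1 and 24.0 against 47.4 and 45.9. Their part in the Bcl11b and Cux2 results was not tested.

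**Figure D4:**
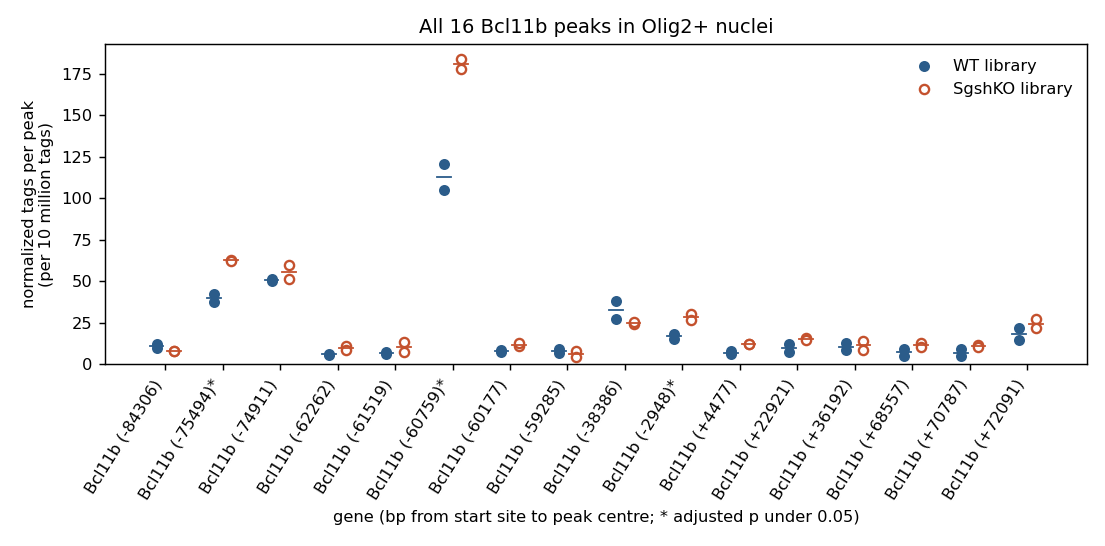
Normalized tags per peak (y axis, linear from 0) in each Olig2+ library for all 16 Bcl11b peaks, ordered by distance of the peak centre from the start site in bp; filled points are WT, open points SgshKO, bars group means of 2, and stars mark called peaks. The peak at -60759 bp is the highest, at 105.3 and 120.7 in WT and 178.3 and 184.1 in SgshKO.

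In microglia, 1 of 41 peaks was called, where 7.37% of all peaks were. It was an intronic Bcl11b peak, chr12:107930657-107930861 (+72655 bp), that held 1 read in each WT library and 13 in each SgshKO library. The ratio of scaled counts was 13.6, with an exact 95% interval of 3.41 to 118 that covers counting error only (limma log2 change 2.77 ± 0.56, adjusted p = 0.00123). With 1 read in each WT library, the peak can have entered the peak set only through the SgshKO libraries. Its ratio, interval and p-value are conditioned on that selection and are no support for a rise. With either WT library left out it was not called, and 13 and 3 of the 41 were called without SgshKO replicates 1 and 2, where the test then called 20.5% and 18.0% of all microglia peaks. The 6 start-site peaks gave 0 calls by limma, edgeR and DESeq2, where limma called 9.80% of all start-site peaks. At the Slc17a7 start site microglia read 25.9 and 32.2 in WT and 49.4 and 41.8 in SgshKO, higher in both SgshKO libraries but short of the threshold (0.63 ± 0.38, adjusted p = 0.332). The Emx1 start-site peak (4.32 and 14.4 against 16.4 and 10.2) and that of Tbr1 (46.7 and 11.9 against 13.0 and 16.7) overlapped between genotypes.

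Of the stronger distal peaks in microglia, 3 are given here, none of which passed the test as fitted. Cux2 at +12374 bp read 97.7 and 99.1 in WT and 205.2 and 122.5 in SgshKO (0.68, adjusted p = 0.172). Neurod2 at -9190 bp read 45.8 and 39.0 against 26.8 and 13.0 (-1.13, adjusted p = 0.0893), and Bcl11b at -85020 bp 91.6 and 75.4 against 110.8 and 64.1 (0.02). The Neurod2 peak did pass with in-peak scaling (adjusted p = 0.0178), median-of-ratios scaling (0.0385), quantile normalization (0.0438), edgeR (0.0365) and the replicate block (0.0144). The Cux2 peak passed with median-of-ratios scaling (adjusted p = 0.0345), edgeR (0.0248) and the replicate block (0.0299). Neither passed with DESeq2 (adjusted p = 0.232 for Neurod2 and 0.119 for Cux2).

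The genotype effect was then compared between sorts at matched peaks, as the log2 change in NeuN+ nuclei minus that in the other sort. Against Olig2+ nuclei, 4 of 17 peaks differed, all more negative in NeuN+ nuclei, where 31.8% of all matched peaks were. Cux2 at -312 bp had log2 values of -1.24 in NeuN+ and 0.40 in Olig2+ nuclei (48.2 and 34.3 in WT, 52.9 and 55.2 in SgshKO), a difference of -1.64 ± 0.34 (adjusted p = 0.000263). Bcl11b at +4478 bp had log2 values of -0.92 (adjusted p = 0.0129) in NeuN+ and 0.73 (adjusted p = 0.107) in Olig2+ nuclei. At -2985 bp they were -0.56 (adjusted p = 0.0531) and 0.73 (adjusted p = 0.0299). Each of these peaks therefore passed in 1 sort, with the opposite sign short of the threshold in the other. The Rorb start site had values of -0.85 in NeuN+ and -0.13 in Olig2+ nuclei, where it read 59.1 and 58.8 in WT and 54.1 and 53.8 in SgshKO. Its difference of -0.73 ± 0.23 (adjusted p = 0.0136) did not pass with median-of-ratios scaling (adjusted p = 0.329) or with quantile normalization (adjusted p = 0.193).

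Against microglia, 2 of 16 peaks differed, both more negative in NeuN+ nuclei, where 27.7% of all matched peaks were. The Slc17a7 start site had values of -1.54 in NeuN+ nuclei and 0.63 in microglia, a difference of -2.17 ± 0.35 (adjusted p = 7.82e-05). The Bcl11b peak at +72699 bp had values of -0.70 and 2.77, a difference of -3.47 ± 0.58 (adjusted p = 9.83e-05), which rests on 1 read in each WT microglia library. That microglia peak can have entered only through SgshKO libraries, so its difference is conditioned on that selection. Without microglia SgshKO replicate 2, 4 of the 16 differed.

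**Figure D5:**
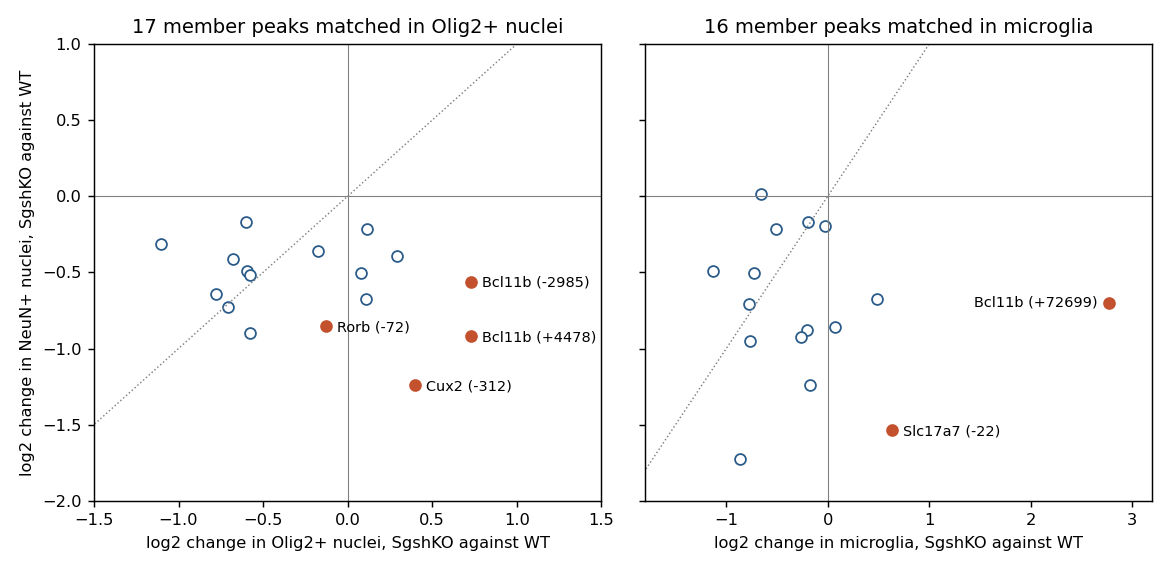
Log2 change, SgshKO against WT, in NeuN+ nuclei (y axis) against the change in Olig2+ nuclei (left, 17 peaks) or microglia (right, 16 peaks); filled and labelled points passed the test of the difference, and the dotted line marks equal change. The 6 filled points lie below the line, with NeuN+ changes of -0.56 to -1.54.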

How the data were processed

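The authors deposited 1 HOMER peak table per sort. The signal in them is tags per peak, which per the file headers was scaled to 10000000 tags per library. The deposited Peak Score, a score from the same tables, served only as a filter. Bowtie2, HOMER and mm10 come from the submitters' processing notes; versions, duplicate handling and read shifting are not stated in any source used. Dividing out the scaling gave whole reads for 100% of values (within 0.01). All 12 tag columns matched a sample title.

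For each table, SgshKO and WT were compared on log2(normalized tags + 1) with limma 3.58.1 in R 4.3.3 (lmFit, eBayes with trend, two-sided, no covariate), adjusted by Benjamini-Hochberg over the table. Matched peaks were fitted over 8 libraries, and the 2 contrasts adjusted over all matched peaks. limma was also run on simulated counts. These had a fixed dispersion and no difference between genotypes in the share of tags in peaks, unlike the NeuN+ libraries. That run therefore cannot show how such a difference affects the calls. Each ± is an SE of that fit. The comparison was repeated with edgeR 4.0.16 and DESeq2 1.42.0 on the recovered reads, and with other scalings, pseudocounts, filters, windows and left-out libraries. Named for each gene and table were the start-site peak nearest the start, and the distal peaks with the smallest p and the highest mean, plus the 3 matched peaks of smallest p in each contrast and the 3 related genes of smallest p; other peaks named were chosen after their values were seen. A gene of the related list is not reported here and was left out of its counts. Members, lists, windows and distance bands were chosen with earlier results of these data known. Promoters were matched by symbol for 9 of 9 genes. Depth, 10771659 to 19555924 tags, left a median of 17 to 39 reads per peak and library.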

Additional observations from a re-analysis of the deposited data

Results flagged for a closer look

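At 6 matched peaks the response to genotype differed between sorts by the limma test of the difference itself. Against Olig2+ nuclei, the NeuN+ change was lower, with a log2 difference of -1.64 ± 0.34 at the Cux2 peak at -312 bp, -1.65 ± 0.42 at Bcl11b +4478 bp (adjusted p = 0.0022), -1.29 ± 0.33 at Bcl11b -2985 bp (adjusted p = 0.00219) and -0.73 ± 0.23 at Rorb -72 bp. These were 4 of 17 matched peaks, where 31.8% of all matched peaks had a lower NeuN+ change, and that at Rorb was lost with median-of-ratios scaling (adjusted p = 0.329) and quantile normalization (adjusted p = 0.193). Against microglia the difference was -3.47 ± 0.58 at Bcl11b +72699 bp and -2.17 ± 0.35 at Slc17a7 -22 bp, 2 of 16 matched peaks, beside 27.7% of all. The Bcl11b value rests on 1 read in each WT microglia library, at a peak that can have entered only through SgshKO libraries. Groups of 2 libraries allowed no test for outlying samples.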

How the results depend on the processing

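Among the 35 called NeuN+ peaks, 22 were still called with edgeR, 22 with median-of-ratios scaling, 18 with in-peak scaling, 16 with quantile normalization and 3 with DESeq2, and 0 changed sign. The count of calls became 20 with in-peak scaling, 16 with quantile normalization and 3 with DESeq2, and 0 to 16 with 1 library left out; at start sites (8) it became 5 with quantile normalization, 1 with DESeq2, 13 with a window of 3000 bp, and 0 to 8 without a library. The 0 came from leaving out either SgshKO library. DESeq2 called 4900 of all NeuN+ peaks and limma 32105. In Olig2+ nuclei the 7 calls became 2 with DESeq2 and 1 to 7 without a library, and the 0 start-site calls became 1 with a window of 3000 bp. In microglia the 1 call became 3 with in-peak scaling, median-of-ratios scaling or edgeR, 2 with quantile normalization, 4 with the replicate block, and 0 with DESeq2, without the lowest 25% of peaks or with a Peak Score of 1000 only; without a library it ranged from 0 to 13, being 13 without the first SgshKO library and 3 without the second.

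The difference of genotype effects from microglia was called at 1 peak instead of 2 with a reciprocal overlap of 75%, and at 2 to 4 without a library. It was called at 3 to 5 against Olig2+ nuclei. WT differences were called at 10 to 13 peaks against Olig2+ nuclei and 4 to 9 against microglia.

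Peaks that changed sign were not called. Bcl11b -69708 bp in NeuN+ nuclei became 0.16 with in-peak scaling, 0.081 with median-of-ratios scaling, 0.11 with quantile normalization, 0.066 with edgeR, 0.068 with DESeq2 and -0.34 to 0.077 without a library. In microglia, Bcl11b -85020 bp became -0.19 with in-peak scaling, -0.078 with quantile normalization and -0.37 to 0.41 without a library. Neurod2 +15796 bp became -0.13 with in-peak scaling and -0.40 to 0.55 without a library. Leaving out a microglia library gave -0.43 to 0.028 at Cux2 +4 bp, -0.14 to 1.39 at Emx1 +142 bp and -1.60 to 0.29 at Tbr1 -837 bp. The cause was not tested.

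Across peaks, deviations between replicates 1 and 2 were nearly uncorrelated between genotypes (0.0036 in NeuN+ nuclei, 0.0007 in Olig2+ nuclei and 0.042 in microglia). Such a correlation cannot show a shift in overall level shared by libraries of the same number. In microglia, replicate 1 had the larger share of tags in peaks in both genotypes (55.8% against 48.7% in WT, 67.4% against 53.7% in SgshKO). Whether replicate numbers pair the samples is therefore not known. The replicate block called 35 of the same 35 peaks in NeuN+ nuclei and 7 of the same 7 in Olig2+ nuclei. In microglia it kept the 1 call, and calls over all microglia peaks went from 6765 to 14489. Reads per peak were few, so weak peaks could show only large changes.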
